A study of Mus musculus with 6 samples.

Results

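The Janus kinases (JAKs) and the signal transducers and activators of transcription (STATs) were examined as transcripts in CX3CR1-EGFP+ osteoclast precursors of mice treated with a JAK inhibitor or vehicle. The 9 genes, chosen by gene symbol, were the 4 kinase genes *Jak1*, *Jak2*, *Jak3* and *Tyk2* and the 5 factor genes *Stat2*, *Stat3*, *Stat5a*, *Stat5b* and *Stat6*. They are 9 of 24346 gene symbols in the tables, and all 9 were among the 11301 genes tested. Other genes of the STAT family were not analysed here. *Stat6*, *Stat3* and *Jak1* had the highest levels of the 9 genes. *Stat3* was the single member whose groups did not overlap, at 68.8 FPKM with vehicle and 54.0 FPKM with JAK inhibitor. Groups did not overlap in this direction for 12.1% of all tested genes, so 1 of 9 lies near that share. None of the 9 genes passed the adjusted threshold, and the levels of the drug target *Jak1* overlapped between the groups.

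JAKs are tyrosine kinases bound to the inner part of cytokine receptors, which carry no kinase of their own. When a cytokine joins its receptor chains, the JAKs phosphorylate each other and the receptor, and STAT proteins that dock there are phosphorylated in turn, pair up and enter the nucleus to bind DNA. JAK1 works with receptors for interleukin-6, interferons and the common gamma chain, JAK2 with receptors for granulocyte and granulocyte-macrophage factors, interleukin-3 and erythropoietin, JAK3 with the common gamma chain alone, and TYK2 with receptors for type I interferon, interleukin-10 and interleukin-12. These steps act on proteins, so transcript levels give the supply of each component and not its activity. The *Stat3* gene is known as one of the targets of STAT3 itself.

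All 6 mice carried the CX3CR1-EGFP knock-in allele, in which the locus of the fractalkine receptor drives a green reporter in monocytes and related cells, and in all of them the periosteum of the calvaria was injected with lipopolysaccharide (LPS) at 20 mg/kg. Over 5 days, 3 mice were given ABT-317, a compound selective for JAK1, and 3 mice were given vehicle. ABT-317 was given orally at a dose of 60 mg/kg, 2 times per day. EGFP+ cells were then sorted from bone marrow of the calvaria for RNA-Seq, with 1 table of FPKM (fragments scaled by transcript length and by mapped fragments) per mouse. No mice without LPS were analysed here, the sources used here give an age range only for the mice of the imaging experiments, and they do not give the sex or zygosity of the mice. FPKM summed to between 688372 and 775790 per mouse. These sums are no read counts and the depth is unknown, so no counting intervals can be given. The sorted cells were not 1 cell type by their markers. All 10 markers of monocytes and osteoclast precursors were expressed, with *Ly6c2* between 2751 and 4617 FPKM. The neutrophil gene *S100a8* stood at 4970 to 15470 FPKM, and the osteoblast gene *Sp7* and the calcitonin receptor gene *Calcr* were listed at 0 in all mice. Of the B cell genes, *Ms4a1* and *Pax5* were listed at 0 in all mice, *Cd79a* was at most 0.849 FPKM and *Cd79b* stood at 26.7 to 35.4 FPKM. Vehicle-treated mouse 3 stood apart, with a root mean square deviation from its group of 0.31 on the log2 scale, against 0.24 to 0.25 in the other mice. Its 8 mature neutrophil markers in the tables summed to 21010 FPKM, against 6545 to 13490 in the other mice. *S100a8* and *S100a9* made up most of this sum, and *Cxcr2*, *Mmp8*, *Mmp9* and *Il1r2* were also highest in this mouse. *Csf3r* was lowest in it, and *Retnlg* was lower than in the other vehicle-treated mice. The larger fold changes that rested on this mouse are given without it too. In such bulk samples, fewer cells of a type and less RNA per cell cannot be told apart.

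The 9 genes lie on 6 chromosomes (GENCODE M21, GRCm38, the assembly also called mm10, which the submitters' notes name). *Jak1* lies on chromosome 4 (101152367 to 101265282), *Jak2* on chromosome 19 (29251828 to 29313080), *Jak3* on chromosome 8 (71676296 to 71690575) and *Tyk2* on chromosome 9 (21104068 to 21131243). *Stat5b* (100780731 to 100850724), *Stat5a* (100859351 to 100885169) and *Stat3* (100885098 to 100939540) are direct neighbours on chromosome 11. *Stat6* (127642986 to 127660957) and *Stat2* (128270559 to 128292849) lie on chromosome 10 with 26 protein-coding genes between them. *Stat5a* and *Stat3* run towards each other and their annotated ends overlap by 72 bases on opposite strands. The sources name both a stranded and an unstranded library kit, so reads from these 72 bases may have been counted for either gene. *Stat5a* and *Stat5b* are close copies of each other. Of the windows of 75 bases, the read length, in the longest coding transcript, 10.2% in *Stat5a* and 7.53% in *Stat5b* also occurred in the other gene, and the split of such reads between the copies is uncertain. In *Jak3*, 8.37% of the windows were shared with *Insl3*, which overlaps its end on the same strand and was at most 0.547 FPKM in any mouse. The longest coding transcripts of the other 6 genes shared no window with another gene.

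Sequences before the start sites of *Stat3* and *Stat2* are shown because *Stat3* had the groups that did not overlap and *Stat2* was the single member with a match to the motifs searched. The 250 bases before each RefSeq start (GRCm38.p6) were read 5′ to 3′ on the strand of the gene, at chr11:100939541-100939790 (minus strand) for *Stat3* and chr10:128270248-128270497 (plus strand) for *Stat2*. Capitals mark the matches.
Stat3: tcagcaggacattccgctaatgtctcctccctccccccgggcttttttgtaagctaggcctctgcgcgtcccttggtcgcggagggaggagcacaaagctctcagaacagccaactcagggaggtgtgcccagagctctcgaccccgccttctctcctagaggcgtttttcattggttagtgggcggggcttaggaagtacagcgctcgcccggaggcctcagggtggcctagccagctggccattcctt
Stat2: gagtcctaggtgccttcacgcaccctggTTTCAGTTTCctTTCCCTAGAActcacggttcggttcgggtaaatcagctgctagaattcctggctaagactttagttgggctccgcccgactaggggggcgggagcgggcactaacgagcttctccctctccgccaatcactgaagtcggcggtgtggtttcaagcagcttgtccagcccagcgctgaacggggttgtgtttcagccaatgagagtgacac

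Both strands were searched for TTCNNNGAA, the core of the site that most STAT dimers bind, for TTCNNNNGAA, the wider spacing that STAT6 prefers, and for GAAANNGAAA, the core of the interferon-stimulated response element bound by STAT2 with IRF9. Of 32851 mouse promoter windows of the same length, 7.02%, 5.85% and 2.98% held these motifs. The *Stat2* window held TTTCAGTTTC, a match to GAAANNGAAA on the opposite strand, from 222 to 213 bases before the start, and TTCCCTAGAA, a match to TTCNNNNGAA, from 210 to 201 bases before it. These 2 matches did not overlap each other. None of the other 10 windows of the 9 genes, *Stat3* included, held any of the 3 motifs, and *Stat5a* and *Stat5b* have 2 annotated starts each. A match is a string of letters and not a measured site.

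Levels with vehicle were compared first, since FPKM is scaled by transcript length. *Stat6*, which carries signals of interleukin-4 and interleukin-13, was the most abundant of the 9 transcripts at 83.4 ± 3.60 FPKM (SD, n = 3), followed by *Stat3*, the main factor downstream of interleukin-6, at 68.8 ± 2.75 FPKM (SD, n = 3). *Jak1* followed at 49.5 ± 2.91 FPKM (SD, n = 3) and was the most abundant kinase gene. *Stat5b* stood at 23.4 ± 1.5 FPKM and its copy *Stat5a* at 8.52 ± 1.22 FPKM (SD, n = 3 each). Both relay growth factor signals such as that of granulocyte-macrophage colony-stimulating factor. *Tyk2* (18.1 ± 3.36 FPKM), *Jak2* (17.2 ± 4.53 FPKM) and *Jak3* (13.8 ± 3.06 FPKM) were close to each other (SD, n = 3 each). *Stat2*, the partner of IRF9 in type I interferon signaling, was lowest at 6.70 ± 0.571 FPKM (SD, n = 3). Between 37.7% (*Stat2*) and 87.2% (*Stat6*) of the tested genes had a lower mean than a member. The order of the 9 means was the same in JAK inhibitor-treated mice.

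The 8 steps of this order were tested within mice over all 6 mice by an exact 2-sided sign-flip permutation test. Its smallest possible p is 0.0312, which gives an adjusted p of 0.0417 over the 8 steps. The means with vehicle set the order, so the 3 vehicle-treated mice in part fix the direction of each step and the p-values in part restate it. For 6 steps the gene placed higher was higher in 6 of 6 mice, among them the 3 JAK inhibitor-treated mice that did not set the order, and the test gave its smallest p (*Stat6* over *Stat3*, *Stat3* over *Jak1*, *Jak1* over *Stat5b*, *Stat5b* over *Tyk2*, *Jak3* over *Stat5a* and *Stat5a* over *Stat2*). The step from *Jak1* to *Stat5b* was the widest, with a mean difference of 0.98 ± 0.094 (SD, n = 6) in log2(FPKM + 1). *Tyk2* and *Jak2* did not differ beyond their spread, with a mean difference of 0.28 ± 0.44 (SD, n = 6) and *Tyk2* higher in 5 of 6 mice. In exact permutation tests, their adjusted p was 0.188, and that of *Jak2* and *Jak3* was 0.143. *Jak2* was higher than *Jak3* in 4 of 6 mice by a mean of 0.24 ± 0.25 (SD, n = 6).

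**Figure D1:**
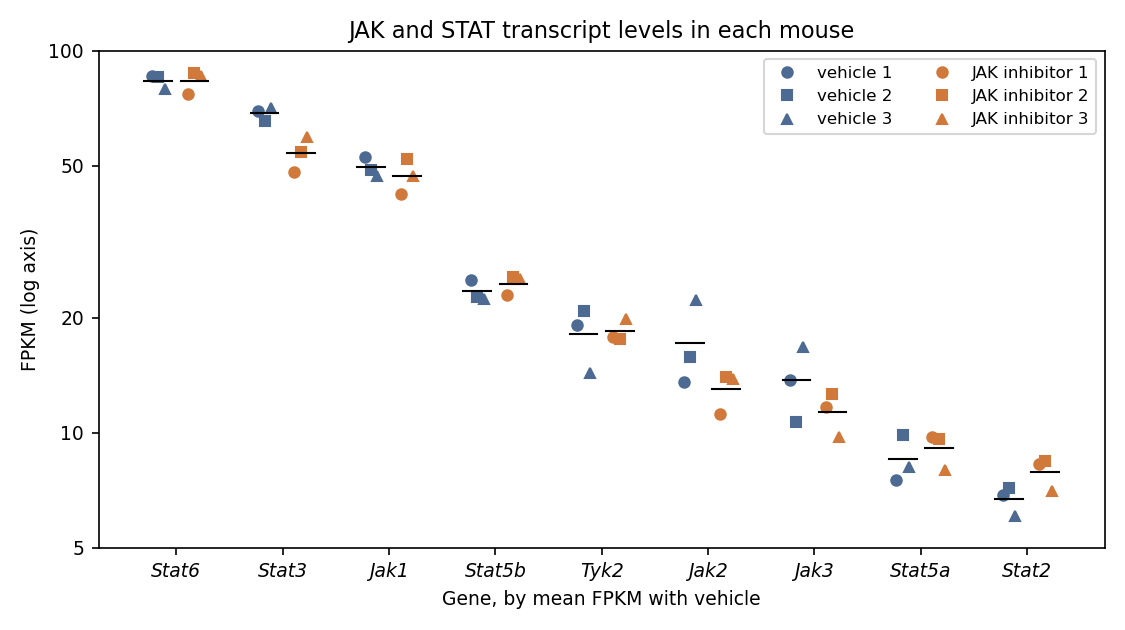
FPKM (log axis) of each JAK and STAT gene, ordered by the mean with vehicle, in 3 vehicle-treated mice (blue) and 3 JAK inhibitor-treated mice (orange), with black lines for group means. The groups overlap for every gene except *Stat3*, whose vehicle-treated mice (65.7 to 70.9 FPKM) all lie above the JAK inhibitor-treated mice (48.2 to 59.6 FPKM).

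The question for the treated mice was whether transcripts of the targeted pathway changed along with the drug. Changes were tested in limma over all 11301 genes on log2(FPKM + 1), with a 95% confidence interval (CI) for each log2 fold change. At an adjusted p under 0.05, 0 of 9 members passed, against 0.133% of all tested genes. At an unadjusted p under 0.05, 1 of 9 was lower with JAK inhibitor, against 9.4% of all tested genes, and 0 of 9 were higher, against 6.57%. Groups did not overlap for 1 of 9 in the lower direction, against 12.1% of all tested genes, and for 0 of 9 in the higher direction, against 9.92%. These shares lie near the background of the whole table. Of all tested genes under the unadjusted threshold, 58.9% were on the lower side, which became 43.3% after scaling to a common sum. The median log2 fold change was -0.003 over the 9 members and -0.004 over all tested genes, and the median of the absolute values was 0.093 against 0.165. The value of the members was 0.193 without vehicle-treated mouse 2 and 0.151 without JAK inhibitor-treated mouse 2. It was also 0.145 without JAK inhibitor-treated mouse 3 and with scaling to a common sum.

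*Jak1*, the kinase that ABT-317 targets, had an FPKM of 52.8, 48.7 and 47.1 in vehicle-treated mice 1 to 3 and of 42.2, 52.2 and 46.9 in JAK inhibitor-treated mice 1 to 3. The ranges overlapped, with the lowest value in JAK inhibitor-treated mouse 1 and the highest in vehicle-treated mouse 1. Its log2 fold change was -0.075 (95% CI -0.32 to 0.17, limma adjusted p = 0.777), so the interval spans 0.801-fold to 1.12-fold. Without JAK inhibitor-treated mouse 1, the log2 fold change was 6.67e-05.

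*Jak2*, the kinase of the receptors for growth factors of myeloid and red cells, had 13.6, 15.8 and 22.3 FPKM in vehicle-treated mice 1 to 3 and 11.2, 14.0 and 13.8 FPKM in JAK inhibitor-treated mice 1 to 3. Vehicle-treated mouse 3 lay above all others, and vehicle-treated mouse 1 lay below 2 of the JAK inhibitor-treated mice. For *Jak2* the log2 fold change was -0.35 (95% CI -0.77 to 0.063, limma adjusted p = 0.389), the largest in size of the 9 genes. It was -0.16 without vehicle-treated mouse 3, the mouse with the highest sum of neutrophil markers, and -0.50 without vehicle-treated mouse 1, when the unadjusted limma p was 0.0266.

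*Jak3*, known mainly from lymphocytes, had 13.8, 10.7 and 16.8 FPKM with vehicle and 11.7, 12.6 and 9.74 FPKM with JAK inhibitor, in mice 1 to 3 of each group. Again vehicle-treated mouse 3 was highest, and the groups overlapped. *Jak3* had a log2 fold change of -0.24 (95% CI -0.64 to 0.16, limma adjusted p = 0.540). It was -0.096 without vehicle-treated mouse 3 and -0.40 without vehicle-treated mouse 2, when the unadjusted limma p was 0.0424. Of the 10 markers of T and NK cells in the tables, 0 were listed at 0 in all mice, but several were near the floor. *Cd3d* was at most 1.3 FPKM, *Cd3e* 0.385, *Cd4* 1.01, *Cd8a* 0.44, *Ncr1* 1.71 and *Klrb1c* 1.13 FPKM. Of these markers, *Nkg7* was the most abundant at 166.6 to 557.1 FPKM and made up most of the summed level of the list. This sum was 205.6 to 374.7 FPKM with vehicle and 491.4 to 573.8 FPKM with JAK inhibitor. *Gzma* followed at 8.01 to 33.15 FPKM with vehicle and 0 to 10.84 FPKM with JAK inhibitor. In vehicle-treated mouse 3, *Gzma* was highest and *Nkg7* was lowest. With JAK inhibitor, 5 of the 8 tested genes of the list were on the lower side and 3 on the higher side (median log2 fold change -0.23). Of the tested genes, *Cd4*, *Klrb1c* and *Prf1* reached 1 FPKM in vehicle-treated mice alone, and *Cd3d* in JAK inhibitor-treated mice alone. The filter in part fixed their directions. The part of T and NK cells in the *Jak3* level was not tested.

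*Tyk2* had 19.2, 20.8 and 14.4 FPKM with vehicle and 17.9, 17.6 and 19.8 FPKM with JAK inhibitor, in mice 1 to 3 of each group. It was lowest in vehicle-treated mouse 3, where *Jak2* and *Jak3* were highest. Its log2 fold change was 0.036 (95% CI -0.30 to 0.37, limma adjusted p = 0.936) and turned to -0.11 without that mouse.

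*Stat3* had 69.7, 65.7 and 70.9 FPKM in vehicle-treated mice 1 to 3 and 48.2, 54.2 and 59.6 FPKM in JAK inhibitor-treated mice 1 to 3. The lowest vehicle-treated mouse was higher than the highest JAK inhibitor-treated mouse, and the vehicle-treated mice were close together, with a coefficient of variation of 4.0% against 10.5%. The JAK inhibitor mean was 78.6% of the vehicle mean. This is a log2 fold change of -0.35 ± 0.10 (standard error, 95% CI -0.58 to -0.11). In limma the unadjusted p was 0.00852 and the adjusted p was 0.168. With 3 mice per group, a 2-sided exact permutation test cannot go below p = 0.1, which is the value it had. Of the tested genes, 94.9% had a smaller absolute t statistic in limma. The difference was -0.32 on the log2 scale without vehicle-treated mouse 3 and ranged from -0.42 to -0.27 over 15 alternative settings, with an unadjusted limma p under 0.05 in all 15 and an adjusted p between 0.149 and 0.445.

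Marker lists of several cell types differed in the same comparison. The 7 genes of neutrophil progenitors summed to 5207 to 9908 FPKM with vehicle and 13330 to 13970 FPKM with JAK inhibitor, with 6 of the 7 genes higher and *Mpo* the most abundant. The other two vehicle-treated mice were at 9091 and 9908 FPKM, and mouse 3 was at 5207 FPKM. Of the 8 tested genes of mature neutrophils, 7 were lower (median log2 fold change -0.69), and their sums overlapped. The 10 macrophage genes summed to 712.3 to 869.2 FPKM with vehicle and 525.1 to 659.2 FPKM with JAK inhibitor, with 8 of 9 tested genes lower. The 7 osteoclast genes, of which *Calcr* was listed at 0 in all mice, summed to 165.7 to 577.1 FPKM with vehicle and 106.7 to 112.2 FPKM with JAK inhibitor, with 6 of 6 tested genes lower. The highest of these sums was that of vehicle-treated mouse 3, and the other two vehicle-treated mice were at 165.7 and 259.7 FPKM. Of the 10 markers of monocytes and osteoclast precursors, 7 were lower, and their sums overlapped. Of the 4 tested erythroid genes, 4 were higher, with sums of 0.69 to 2.77 FPKM with vehicle and 6.09 to 51.1 FPKM with JAK inhibitor. Their part in the *Stat3* difference was not tested.

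*Stat2* was the member placed highest on the higher side, with 6.89, 7.15 and 6.06 FPKM with vehicle and 8.30, 8.44 and 7.03 FPKM with JAK inhibitor, in mice 1 to 3 of each group. The groups overlapped through a single pair, vehicle-treated mouse 2 and JAK inhibitor-treated mouse 3. *Stat2* had a log2 fold change of 0.21 (95% CI -0.11 to 0.54, limma adjusted p = 0.516).

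*Stat5a* and *Stat5b* had groups that overlapped. *Stat5a* had 7.54, 9.88 and 8.16 FPKM with vehicle and 9.76, 9.66 and 7.99 FPKM with JAK inhibitor (log2 fold change 0.093, 95% CI -0.25 to 0.43, limma adjusted p = 0.804). *Stat5b* had 25.2, 22.7 and 22.4 FPKM with vehicle and 22.9, 25.5 and 25.3 FPKM with JAK inhibitor (log2 fold change 0.066, 95% CI -0.18 to 0.31, limma adjusted p = 0.802). With 1 mouse left out, the log2 fold change lay between 0.018 (without vehicle-treated mouse 1) and 0.19 (without vehicle-treated mouse 2) for *Stat5a*. For *Stat5b* it lay between 0.037 (without vehicle-treated mouse 3) and 0.12 (without vehicle-treated mouse 1). The ratio of *Stat5b* to *Stat5a* was 2.30 to 3.34 with vehicle and 2.35 to 3.17 with JAK inhibitor. *Stat6* was the steadiest member, with 85.7, 85.4 and 79.3 FPKM against 76.9, 87.3 and 85.9 FPKM. Its log2 fold change was -0.003 (95% CI -0.21 to 0.20, limma adjusted p = 0.992).

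**Figure D2:**
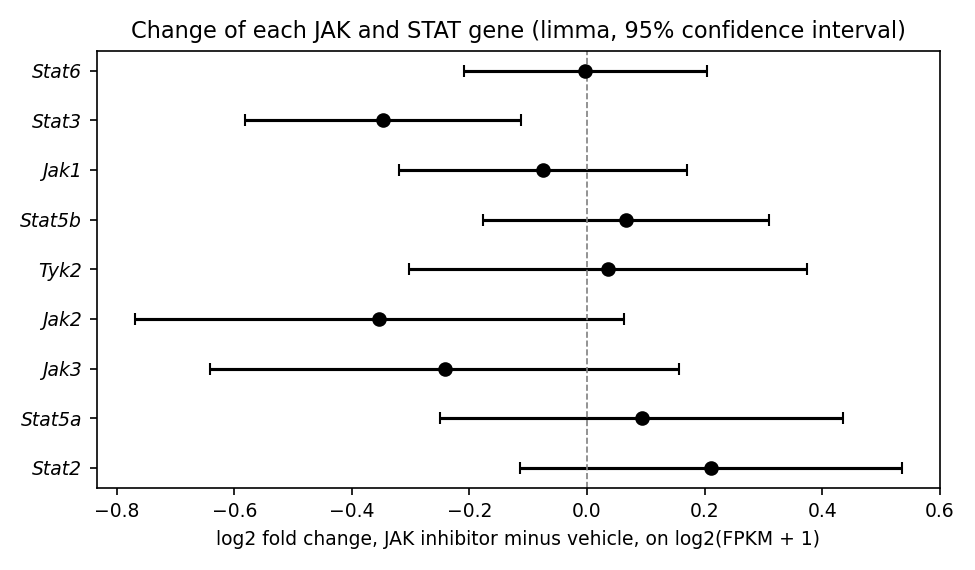
Log2 fold change of each gene (JAK inhibitor minus vehicle, on log2(FPKM + 1)) with its 95% confidence interval from limma. The interval of *Stat3*, from -0.58 to -0.11, is the one that leaves out 0, and those of *Jak2* and *Jak3* are the widest.

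*Jak2* and *Jak3* varied most between mice, and *Stat5b* and *Stat6* varied least. The highest value over the lowest of the 6 mice was 1.98 for *Jak2*, 1.73 for *Jak3*, 1.45 for *Tyk2* and 1.25 for *Jak1*. It was 1.47 for *Stat3*, 1.39 for *Stat2*, 1.31 for *Stat5a* and 1.14 for both *Stat5b* and *Stat6*. Relative to the mean of the 6 mice in log2(FPKM + 1), vehicle-treated mouse 3 deviated by 0.56 for *Jak2*, by 0.41 for *Jak3* and by -0.32 for *Tyk2*.

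**Figure D3:**
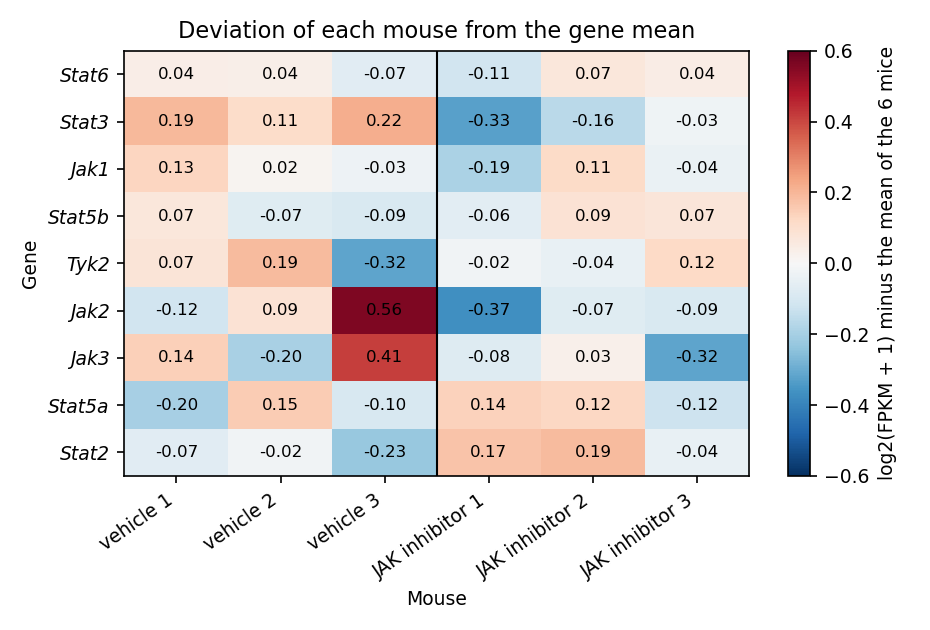
Deviation of each mouse (columns) from the mean of the 6 mice for each gene (rows), in log2(FPKM + 1), with vehicle-treated mice left of the black line and red for higher values. *Stat3* is above 0 in all 3 vehicle-treated mice and below 0 in all 3 JAK inhibitor-treated mice, and vehicle-treated mouse 3 holds the widest deviations (0.56 for *Jak2*, 0.41 for *Jak3*).

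The makeup of each family was compared as shares of its summed FPKM within a mouse, which no scaling of a library can change. *Jak1* made up 46.9% to 53.1% of the summed FPKM of the 4 kinases with vehicle and 50.8% to 54.1% with JAK inhibitor. The other kinase shares also overlapped, at 13.7% to 22.2% against 13.5% to 15.3% for *Jak2*, 11.1% to 16.7% against 10.8% to 14.1% for *Jak3* and 14.3% to 21.7% against 18.2% to 22.0% for *Tyk2*. Among the 5 STAT genes, the share of *Stat3* was 35.8%, 34.4% and 38.0% in vehicle-treated mice 1 to 3 and 29.0%, 29.3% and 32.1% in JAK inhibitor-treated mice 1 to 3. The groups did not overlap, and the mean share was 36.0% ± 1.78 with vehicle and 30.1% ± 1.70 with JAK inhibitor (SD, n = 3 each), a difference of -5.91 percentage points. The shares of *Stat6* (42.4% to 44.7% against 46.2% to 47.2%), *Stat5b* (11.9% to 12.9% against 13.6% to 13.8%) and *Stat2* (3.24% to 3.75% against 3.78% to 4.99%) lay higher without overlap, and that of *Stat5a* overlapped. Shares of a family sum to 100, so a lower share of *Stat3* raises the others by arithmetic. Each of these 4 differences had p = 0.1 in the exact 2-sided permutation test, the smallest possible, and an adjusted p of 0.225 over the 9 shares.

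**Figure D4:**
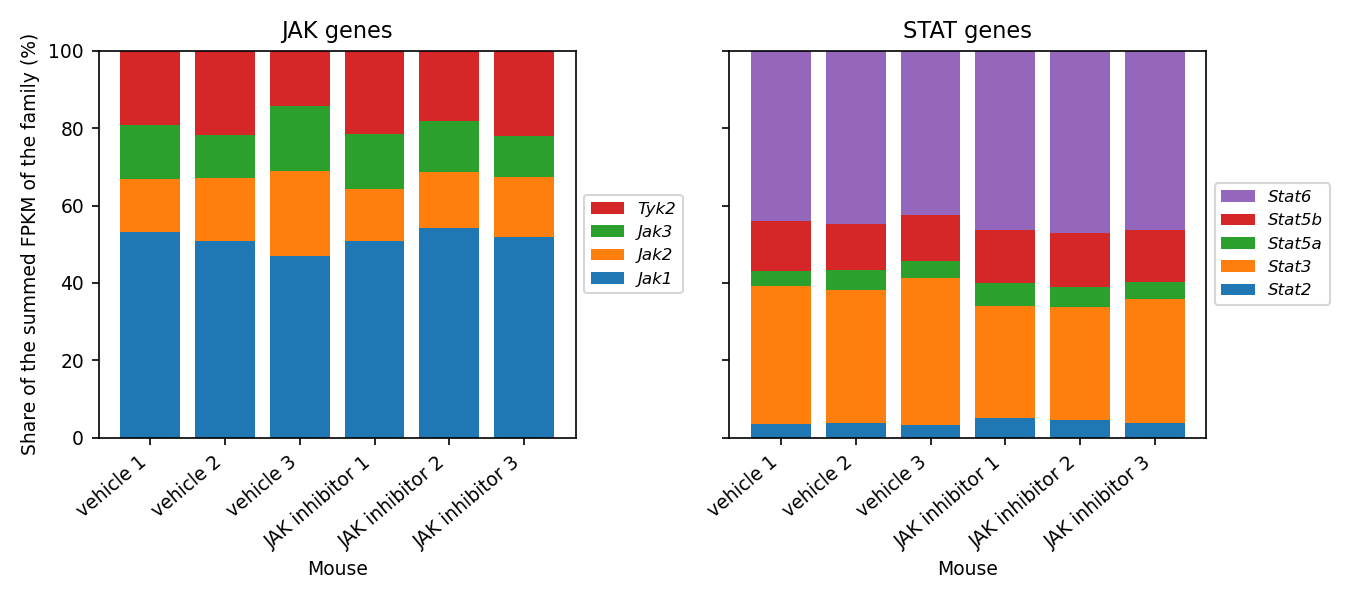
Shares (%) of the summed FPKM of the 4 JAK genes (left) and of the 5 STAT genes (right) in each mouse, stacked to 100%. *Jak1* takes 46.9% to 54.1% of the kinase total in all mice, and the part of *Stat3* is smaller in the 3 JAK inhibitor-treated mice (29.0% to 32.1%) than in the 3 vehicle-treated mice (34.4% to 38.0%).

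The other genes of the pathway came from 6 lists of receptors, inhibitors and partners with 82 genes, of which 70 were tested. At an adjusted p under 0.05 in limma, 0 of these 70 passed. At an unadjusted p under 0.05, 9 were lower and 6 were higher, against 9.4% and 6.57% of all tested genes, and the median log2 fold change was -0.03. The total of 15 genes lay between 10 and 16 over the alternative settings. Of 28 tested receptor chains that bind a JAK, 5 were lower and 4 were higher at the unadjusted threshold, and the same shares of all tested genes apply. Among the 5 lower chains, *Il2rb* and *Il12rb1* reached 1 FPKM in vehicle-treated mice alone, so the filter in part fixed their direction.

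The receptor chains with the highest levels were *Ifngr1*, the ligand-binding chain for interferon gamma (424.2 ± 35 FPKM with vehicle), *Il2rg*, the common gamma chain (225.8 ± 16.4 FPKM), and *Ifnar2*, a chain of the type I interferon receptor (157.0 ± 7.15 FPKM; SD, n = 3 each). By the smallest p, 3 of the 5 named chains lay on the higher side, all without overlap of the groups. Choice by the smallest p favors genes without overlap. Of the 28 tested chains, groups did not overlap for 6 on the higher side and 5 on the lower side. The shares of all tested genes were 9.92% and 12.1%. Of the chains without overlap on the lower side, *Il2rb*, *Il12rb1* and *Ghr* reached 1 FPKM in vehicle-treated mice alone. For *Il2rb* and *Ghr* this was vehicle-treated mouse 3 alone. The filter in part fixed the direction of these chains. *Il6st*, which encodes gp130, the signaling chain shared by the interleukin-6 family, had 8.82, 12.5 and 8.62 FPKM with vehicle and 13.7, 17.2 and 16.3 FPKM with JAK inhibitor (log2 fold change 0.62, limma adjusted p = 0.147). The ligand-binding chain *Il6ra* overlapped, with 25.2 ± 5.59 against 20.4 ± 3.47 FPKM (SD, n = 3 each). *Il6st* and *Stat3*, which act in 1 pathway, had differences of opposite sign. *Il3ra*, a chain of the interleukin-3 receptor, had 4.30, 5.38 and 3.84 FPKM with vehicle and 10.9, 8.59 and 6.79 FPKM with JAK inhibitor (log2 fold change 0.81, limma adjusted p = 0.117). *Ifnar2* had a mean of 191.0 FPKM with JAK inhibitor (log2 fold change 0.28, limma adjusted p = 0.157).

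The other 2 named chains lay on the lower side. *Csf2rb*, the common beta chain through which interleukin-3 and granulocyte-macrophage factor engage JAK2, had 62.0, 54.5 and 90.3 FPKM with vehicle and 40.5, 45.4 and 43.5 FPKM with JAK inhibitor, without overlap (log2 fold change -0.63, limma adjusted p = 0.147). It was -0.42 without vehicle-treated mouse 3. *Il12rb1*, a TYK2-binding chain, was low throughout, at 0.942 to 1.46 against 0.060 to 0.495 FPKM (log2 fold change -0.80, limma adjusted p = 0.169). *Il12rb1* reached 1 FPKM in vehicle-treated mice alone, so the filter in part fixed its direction.

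Among the inhibitors, *Socs3*, a STAT3-induced inhibitor of gp130 signaling, had 19.9, 9.48 and 52.3 FPKM in vehicle-treated mice 1 to 3 and 8.30, 7.74 and 9.28 FPKM in JAK inhibitor-treated mice 1 to 3. The groups did not overlap, but vehicle-treated mouse 2 lay just above the highest JAK inhibitor-treated mouse, and vehicle-treated mouse 3 was far above both of its group. For *Socs3* the log2 fold change was -1.27 ± 0.47 (standard error, limma adjusted p = 0.238), which was -0.65 without vehicle-treated mouse 3. Its unadjusted p was under 0.05 in 12 of 15 alternative settings, all except those without a filter and without JAK inhibitor-treated mouse 1 or 2. It was 1 of 6 tested members of the SOCS family on the lower side at the unadjusted threshold, against 9.4% of all tested genes. Of the 4 tested PIAS genes, which encode inhibitors of STAT binding, 0 passed it in limma, and 2 were lower with JAK inhibitor without overlap, against 12.1% of all tested genes.

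Of 7 tested phosphatases, 2 were lower and 1 was higher at the unadjusted threshold, against 9.4% and 6.57% of all tested genes. *Ptpn1* (PTP1B), which acts on JAK2 and TYK2, had 111.6 ± 10.8 against 88.2 ± 8.86 FPKM (SD, n = 3 each), a log2 fold change of -0.34. *Acp1* had 33.2 ± 1.94 against 27.7 ± 2.52 FPKM (SD, n = 3 each), a log2 fold change of -0.26. Its unadjusted p was under 0.05 in 6 of 15 alternative settings. That of *Ptpn1* was in 13 of 15, all except those without vehicle-treated mouse 1 or without JAK inhibitor-treated mouse 2. *Ptprc* (CD45), a phosphatase of all white blood cells, had 104.1 ± 9.56 against 129.9 ± 1.48 FPKM (SD, n = 3 each), a log2 fold change of 0.32. The limma adjusted p was 0.196 for *Ptpn1*, 0.299 for *Acp1* and 0.159 for *Ptprc*.

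Among 14 tested adaptors, 1 was higher at the unadjusted threshold, against 6.57% of all tested genes. This was *Stap1*, with 37.8, 27.2 and 13.1 FPKM against 42.1, 43.7 and 50.4 FPKM (log2 fold change 0.89, limma adjusted p = 0.210). It was 0.48 without vehicle-treated mouse 3, where *Stap1* was lowest, and its unadjusted p was under 0.05 in 13 of 15 alternative settings, all except those without a filter and without JAK inhibitor-treated mouse 3. Of 11 partners and co-activators, 1 was lower at the unadjusted threshold, against 9.4%. This was *Irf9*, which joins STAT2 in the interferon-stimulated complex, with 18.3, 24.8 and 17.6 FPKM with vehicle and 15.8, 12.0 and 12.9 FPKM with JAK inhibitor. Its groups did not overlap, and the log2 fold change was -0.54 ± 0.16 (standard error, limma adjusted p = 0.172). *Irf9* and *Stat2* had differences of opposite sign.

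**Figure D5:**
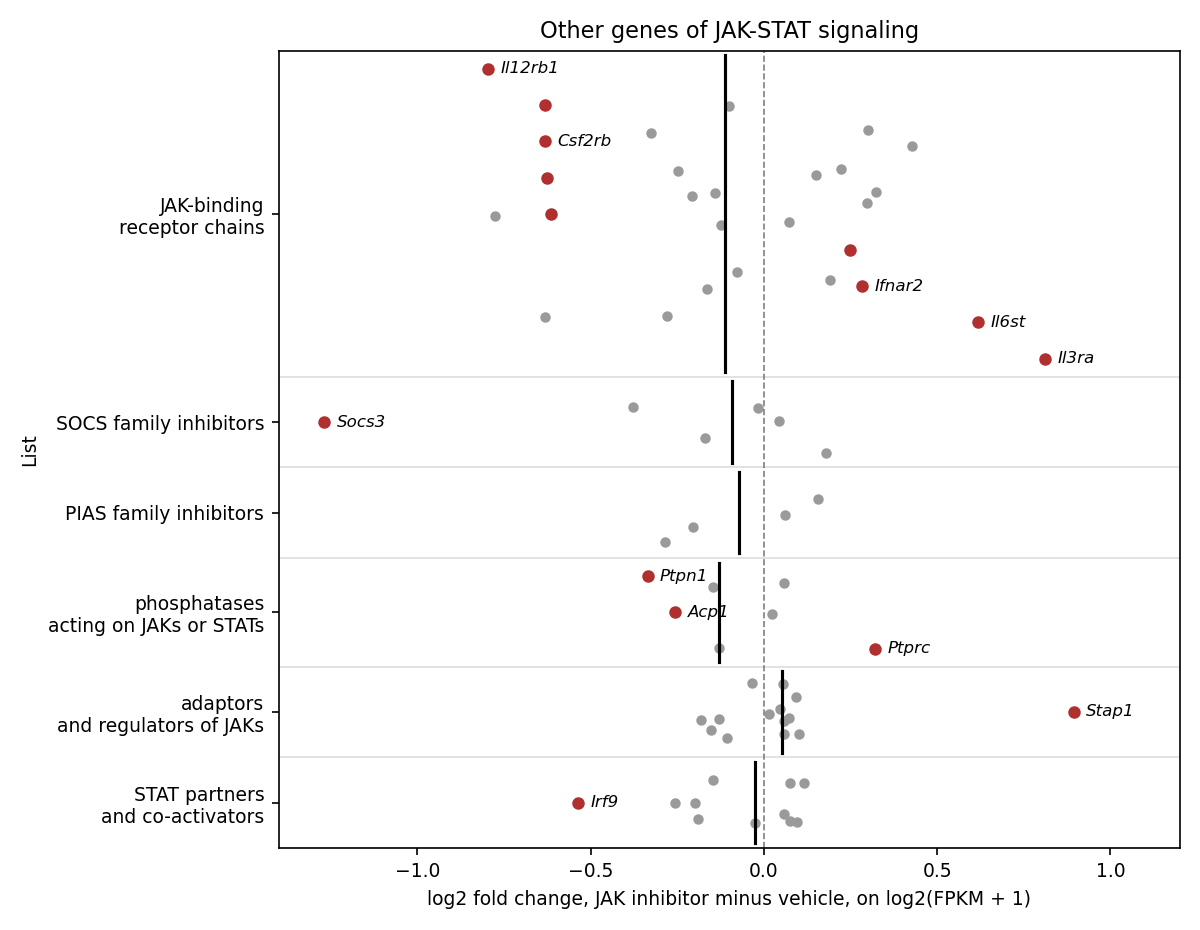
Log2 fold changes (JAK inhibitor minus vehicle, on log2(FPKM + 1)) of the 70 tested genes of the 6 lists, with grey points for an unadjusted limma p of 0.05 or more, red points for smaller p, names for up to 5 red genes per list and black lines for list medians. *Socs3* at -1.27 lies lowest and *Stap1* at 0.89 highest, and vertical position within a list has no meaning.

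Genes whose pattern over the 6 mice was nearest to that of *Jak1* and *Stat3* were looked up among 7740 other genes with a mean of at least 5 FPKM, by the root mean square difference in log2(FPKM + 1) centred on the mean of each gene. *Jak1* was nearest to *Actn4* (0.026), *Mlkl* (0.032) and *Stim1* (0.037). Among the 3 genes nearest to *Stat3* were *Cyc1* and *2210016L21Rik* (0.035 each). *Cyc1*, which encodes a subunit of the respiratory chain, had 265.1 to 302.2 FPKM with vehicle and 196.3 to 238.2 FPKM with JAK inhibitor. This is a description of 6 mice and was not tested.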

How the data were processed

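The authors deposited 1 table of FPKM per mouse (3 JAK inhibitor-treated and 3 vehicle-treated mice). The submitters' processing notes name TopHat2 2.0.13, Bowtie2 2.2.3, SAMtools 0.1.19, Cufflinks 2.2.1 and mm10. The annotation, filters and options behind the deposited FPKM are not given in the sources used here. The methods of the study name a TruSeq Stranded mRNA kit, and the labels name SMART-Seq HT with Nextera. Modal ratios of values under 0.5 FPKM between pairs of libraries, a rough guide to relative depth, lay between -0.24 and 0.22 on the log2 scale.

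Genes with at least 1 FPKM in at least 1 mouse were kept, and log2(FPKM + 1) was compared in limma 3.58.1 (R 4.3.3), with an intensity trend in the empirical Bayes step and p adjusted by Benjamini-Hochberg. A fold change on this scale understates changes of low genes. Single genes and shares had exact permutation tests in SciPy 1.17.1 (Python 3.11.15). The exact sign-flip permutation test for steps of the order was written directly in Python. Tables and figures used pandas 2.3.3, NumPy 2.4.6 and matplotlib 3.10.9. Alternatives were a pseudocount of 0.1, other filters, quantile, median ratio and common sum scaling, no trend, library weights, a block for the replicate number, and the omission of 1 mouse at a time. The study gives 3 mice per group, so p-values measure the spread between mice handled together or apart, which the sources do not say.

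Members and lists were chosen with earlier results of these data known. Named were the members, up to 5 genes per list with the smallest unadjusted p under 0.05, the 3 most abundant receptor chains, the 3 genes nearest to *Jak1* and to *Stat3*, and, per marker list, markers at 0 and the most abundant. Further genes were named after their values were seen. Some genes of the lists and of this rule are not reported here.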

Additional observations from a re-analysis of the deposited data

How the results depend on the processing

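At an adjusted p under 0.05, 0 of the 9 members and 0 of the 70 list genes passed in limma, and both numbers were 0 under all 15 alternatives, while 1 or 2 members passed the unadjusted threshold. Over all genes, 15 passed, against 4 without a filter, 34 with at least 1 FPKM in at least 3 mice, 2 without the trend, 63 with weights for each library, 67 with the replicate block, and 3 to 95 with 1 mouse left out. Correlations of deviations were at most 0.054 for same-numbered mice and lay between -0.038 and 0.019 for differently numbered mice. Whether the replicate numbers pair the mice is unknown, since the sources do not give the handling and weak correlations cannot exclude a pairing. The block changed no adjusted call of a member but brought *Jak2* under the unadjusted threshold in limma. Sign changes were limited to members near 0. *Stat6* had a log2 fold change of 0.037 with quantile normalization, 0.0041 with median ratio scaling and 0.051 with a common sum, and lay between -0.039 and 0.054 with 1 mouse left out. *Tyk2* had -0.025 with weights for each library and lay between -0.11 and 0.14 with 1 mouse left out. *Jak1* lay between -0.15 and 6.67e-05 with 1 mouse left out. The cause of these changes was not tested. The directions of *Jak2*, *Jak3*, *Stat2*, *Stat3*, *Stat5a* and *Stat5b* were the same under all 15. Depth is unknown, and 3 mice per group cannot give an exact p under 0.1.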

Other observations

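The ratio of *Irf9* to *Stat2* was looked at after both values were seen. It was 2.66, 3.47 and 2.91 in vehicle-treated mice 1 to 3 and 1.90, 1.43 and 1.84 in JAK inhibitor-treated mice 1 to 3, without overlap. The ratio lies within a library, so no scaling of the libraries changes it.

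Markers of mast cells and basophils were abundant in cells sorted for the CX3CR1 reporter. The 5 genes of the list summed to 1587 to 3471 FPKM with vehicle and 2436 to 3771 FPKM with JAK inhibitor, and their groups overlapped. *Prss34* was highest at 923.2 to 2338 FPKM, followed by *Mcpt8* at 462.6 to 1130 FPKM. Basophils use interleukin-3 receptors that signal through JAK2, and the part of these cells in the levels of *Il3ra*, *Csf2rb* and the STAT genes was not tested.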
